A study of Mus musculus with 2 samples.

Results

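The receptors of bacterial and viral molecules that epithelial cells carry were compared between control and treated mouse intestinal organoids. The set was fixed by name and holds 10 genes, namely the Toll-like receptors Tlr1, Tlr2, Tlr3, Tlr4 and Tlr5, the co-receptor Cd14, the adaptor Myd88, the cytosolic receptors Nod1 and Nod2, and their kinase Ripk2. Of these 10 genes, 9 were found among the 19294 genes with read counts, and Tlr1 was not in the table. The mRNA-seq data hold 1 control library and 1 library of a culture given dextran sulfate sodium (DSS), a sulfated polysaccharide that injures the gut epithelium, for 4 days. Both cultures were mouse intestinal organoids, grown from jejunal crypts of Lgr5-EGFP-IRES-creERT2 mice, in which the Lgr5 locus carries EGFP and an inducible Cre, and both were kept in medium with EGF, Noggin and R-spondin and labelled day 4. The DSS dose of the sequenced culture and the age of the animals are not given in the sources used here. No immune cells or microbes are described as added to the cultures. The labels call the cells intestinal stem cells, and the stem cell markers Lgr5, Olfm4, Ascl2, Smoc2, Slc12a2 and Axin2 were all present in the control culture. All 6 were more than 2-fold lower under DSS, beside 20.2% of all genes, with a median log2 ratio of -4.02. Markers of other epithelial cells were present in both cultures, so that neither held stem cells alone. All 6 goblet, all 6 enterocyte and all 6 enteroendocrine markers were more than 2-fold higher under DSS, beside 19.3% of all genes. Their median log2 ratios were 4.37, 3.63 and 2.47. Of 5 measured tuft cell markers, 3 were more than 2-fold lower, with a median of -1.20 over the 5. By RT-PCR, the study reported Vil1, Muc2 and Chga at similar levels under DSS, and Lgr5 and Lyz lower. Here Vil1 was at 1.25, Muc2 at 4.98 and Chga at 2.60. The part of these cell types in the ratios given here was not tested.

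Toll-like receptors are membrane proteins whose leucine-rich repeats bind microbial molecules and whose inner TIR domain recruits adaptors, above all MYD88, to start NF-κB signaling. NOD1 and NOD2 sense fragments of peptidoglycan in the cytosol and signal through the kinase RIPK2. In the gut, these receptors let the epithelium respond to microbes while tolerating those of the lumen, and mouse small intestinal TLR5 is known mainly from Paneth cells, while NOD2 is known from Paneth and stem cells.

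Depth was 65493032 counts for the control and 59746968 for DSS. Values are given as CPM, the count scaled to a common library size with TMM factors. Genes were compared by the DSS to control ratio of CPM on the log2 scale, called the log2 ratio, whose 95% bounds (exact binomial, Clopper-Pearson) reflect counting error alone. With 1 library per condition, no test between conditions was possible, no p-value exists, and the treatment cannot be told apart from any other difference between these 2 cultures. A log2 ratio of 1 or more, or of -1 or less, which is a 2-fold difference, was used as a line of size. Scaling by total counts in place of TMM lowers every ratio by the same 0.26 on the log2 scale. In RNA from a whole culture, fewer cells of a type and less RNA per cell cannot be told apart.

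All 9 genes reached 10 counts in one or both libraries. Tlr4 and Tlr2 lay at or above the upper line and Nod1 lay below the lower line, while the other 6 genes lay between the lines, where 60.5% of all genes lay. Thus 2 of 9 genes (22.2%) were past the upper line, beside 19.3% of the 17235 genes that reached the same minimum, and 1 of 9 (11.1%) was past the lower line, beside 20.2%. With total counts 2 genes and 1 gene were past the lines, beside 15.4% and 26.2% of all genes. At a log2 ratio of 2 or more, or of -2 or less, there were 0 of the 9 genes, beside 7.87% and 6.54% of all genes. The shares were near or below those of all genes. The median log2 ratio of the 9 genes was 0.34, compared with -0.06 over all 17235 genes. The whole counting interval lay above 0 for 6 genes, beside 38.7% of all genes, and below 0 for 2 genes, beside 42.7%. With total counts, the intervals of 3 genes were above 0 and those of 3 were below 0, and the intervals of Tlr2, Nod2 and Myd88 included 0.

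**Figure D1:**
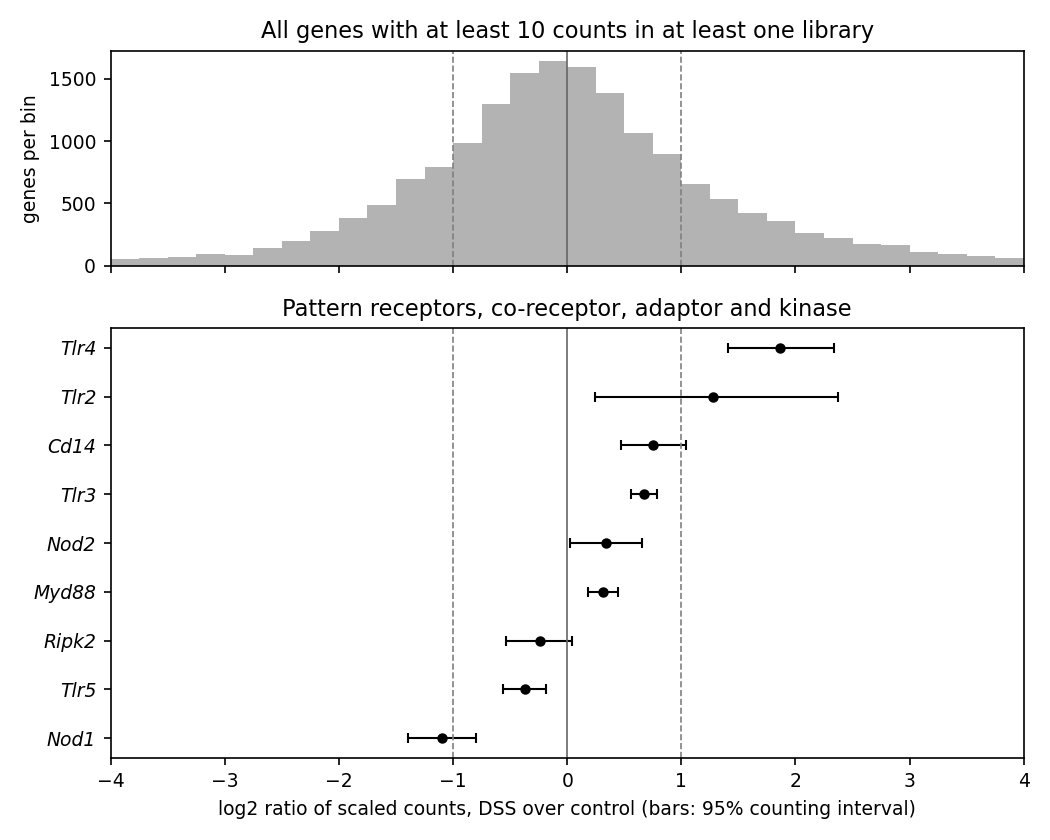
Log2 ratio of scaled counts, DSS over control, for all genes with 10 counts or more in one or both libraries (upper panel, genes per bin, drawn from -4 to 4) and for the 9 receptor pathway genes (lower panel). Points are ratios, bars are 95% counting intervals and dashed lines mark 1 and -1. Tlr4 at 1.86 and Nod1 at -1.09 are at the ends, and Tlr2 has the widest bar.

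TLR4 recognizes lipopolysaccharide of Gram-negative bacteria together with its partner MD-2, encoded by Ly96, and with CD14, which hands lipopolysaccharide over to the complex. Tlr4 (NCBI gene 21898) was counted 54 times in the control and 150 times under DSS, or at 0.755 and 2.74 CPM. Its level was 3.64-fold higher under DSS (log2 ratio 1.86, bounds 1.40 and 2.34). Among the 9 genes, Tlr4 alone had its whole interval past a line, whereas with total counts that of Nod1 was past the lower line as well (-1.65 to -1.05). Cd14 (12475) was counted 185 and 238 times, or at 2.58 and 4.35 CPM (log2 ratio 0.75, bounds 0.47 and 1.04). Tlr4 and Cd14 were thus both higher under DSS, Tlr4 more so than Cd14. The difference between the ratios of Tlr4 and Cd14 was 1.11 on the log2 scale, with an interval from 0.56 to 1.67, and does not depend on the scaling of the libraries. Ly96 had 196 and 128 counts, and its log2 ratio of -0.23 had bounds of -0.56 and 0.10, on either side of 0. The ratio of Tlr4 was therefore 2.08 higher than that of Ly96 (interval 1.51 to 2.67), a pair chosen after the values were seen. Lbp, which encodes the lipopolysaccharide binding protein of serum, was not in the table.

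CD14 and TLR4 are also abundant on myeloid cells, so immune cell markers were read in the same libraries. Of 18 immune cell markers, 8 were in the table, and Ptprc, Adgre1, Tyrobp, Coro1a, Cd3e and Cx3cr1 were among the 10 that were not. The table holds only genes with counts in both cultures, so absence does not show that a marker had no reads in either. The 8 markers summed to 14.4 CPM in the control and 25.0 CPM under DSS. Most of this came from Itgam and Cd68. Itgam had 375 and 631 counts (log2 ratio 1.14, bounds 0.95 and 1.33). Cd68 had 491 and 621 counts (log2 ratio 0.73, bounds 0.55 and 0.90). Lyz2, the lysozyme of myeloid cells, went the other way with 137 and 71 counts (log2 ratio -0.56, bounds -0.99 and -0.14). Cd68, Itgam and Lyz2 were set aside after the values were seen. The other 5 markers summed to 0.433 CPM and 0.768 CPM, or 31 and 42 counts (log2 ratio 0.83, bounds 0.12 and 1.55). Csf1r, the receptor of the macrophage growth factor, had 9 and 21 counts (log2 ratio 1.61, bounds 0.42 and 2.92). Of 12 mesenchymal and endothelial markers, 6 were in the table and 5 reached 10 counts in one or both libraries. Of these 5, 3 were past the upper line and 0 past the lower line, beside 19.3% and 20.2% of all genes. Vim had 374 and 1857 counts, Acta2 4 and 20, and Pecam1 12 and 55. Col1a1 at 0.12 and Pdgfrb at 0.32 lay between the lines. The part of immune, mesenchymal or endothelial cells in the ratios of Tlr4 and Cd14 was not tested.

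TLR2 binds bacterial lipoproteins in pairs with TLR1 or TLR6. Tlr2 (24088) was the least abundant of the 9 genes, counted 13 times in the control and 24 times under DSS, or 0.182 and 0.439 CPM. Its log2 ratio was 1.27 (bounds 0.24 and 2.37). At this depth it could not be separated from that of Tlr4, since their difference of -0.59 had an interval from -1.74 to 0.61. Tlr6 had 10 and 8 counts, and its log2 ratio of 0.07 had bounds of -1.48 and 1.56. Tlr13 had 3 and 4 counts, and the other listed Toll-like receptors Tlr7, Tlr8, Tlr9, Tlr11 and Tlr12 were not in the table. Tlr1 was absent from the table, whose genes all have counts in both cultures. In the annotated mouse transcripts, 15.3% of all 50-base windows of the longest coding Tlr1 transcript also occur in another gene, most of them in Tlr6, and reads from these stretches cannot be given to either gene by sequence alone. No 50-base window of the other 9 genes was found in the transcripts of another gene.

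Promoter sequences from 250 bases before to 50 bases after the annotated start were taken from RefSeq (GRCm38.p6), where 7 of the 10 genes were found. They were searched on both strands for the NF-κB consensus, the core of the interferon-stimulated response element, which is GAAA, any 2 bases and GAAA, and the AP-1 site TGANTCA. Matches were found for 3 genes, and these are shown with matches in capitals, beside the promoters of Tlr5, lower under DSS, and Nod2, higher under DSS, which had no match. Nod1 and Tlr1 had no match either. The promoters of Tlr4, Ripk2 and Cd14 were not among those found and were not searched.
Tlr2, chr3:83841559-83841858, minus strand: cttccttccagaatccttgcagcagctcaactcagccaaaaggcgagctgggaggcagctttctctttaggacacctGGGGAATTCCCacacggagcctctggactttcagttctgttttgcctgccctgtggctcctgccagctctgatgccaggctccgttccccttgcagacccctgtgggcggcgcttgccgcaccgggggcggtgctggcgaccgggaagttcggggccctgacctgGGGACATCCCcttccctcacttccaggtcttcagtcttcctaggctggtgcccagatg
Tlr3, chr8:45410331-45410630, minus strand: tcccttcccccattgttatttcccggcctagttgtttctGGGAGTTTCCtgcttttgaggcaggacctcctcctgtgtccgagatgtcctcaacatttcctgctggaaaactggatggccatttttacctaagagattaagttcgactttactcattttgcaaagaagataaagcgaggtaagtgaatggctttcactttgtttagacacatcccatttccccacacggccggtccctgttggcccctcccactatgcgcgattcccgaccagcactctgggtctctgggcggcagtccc
Myd88, chr9:119339969-119340268, minus strand: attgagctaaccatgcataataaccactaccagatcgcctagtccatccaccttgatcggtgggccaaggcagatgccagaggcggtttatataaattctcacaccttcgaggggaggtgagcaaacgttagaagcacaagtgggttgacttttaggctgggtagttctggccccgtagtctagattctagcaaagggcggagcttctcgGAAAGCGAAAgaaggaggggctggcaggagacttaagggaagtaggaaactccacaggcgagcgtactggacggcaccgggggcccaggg
Tlr5, chr1:182954538-182954837, plus strand: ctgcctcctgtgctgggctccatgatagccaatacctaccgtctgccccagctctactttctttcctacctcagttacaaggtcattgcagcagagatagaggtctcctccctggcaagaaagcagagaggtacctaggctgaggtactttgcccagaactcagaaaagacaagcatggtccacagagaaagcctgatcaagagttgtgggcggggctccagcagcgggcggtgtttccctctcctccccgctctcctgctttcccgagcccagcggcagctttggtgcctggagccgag
Nod2, chr8:88647097-88647396, plus strand: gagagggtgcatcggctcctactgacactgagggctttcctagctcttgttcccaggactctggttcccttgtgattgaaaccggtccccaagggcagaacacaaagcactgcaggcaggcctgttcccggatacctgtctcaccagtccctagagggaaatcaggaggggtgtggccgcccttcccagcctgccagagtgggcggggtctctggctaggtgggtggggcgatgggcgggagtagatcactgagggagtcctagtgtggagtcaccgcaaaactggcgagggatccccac
The Tlr2 promoter held the NF-κB consensus at 2 places, one of which is read by overlapping matches on both strands. The Tlr3 promoter held it once, 211 bases before the start. The Myd88 promoter held the interferon-stimulated response element core once, 40 bases before the start. Among 32851 promoter windows of this length, 4.51% held the NF-κB consensus, 3.44% the interferon-stimulated response element core and 7.81% the AP-1 site. These are matches of letters, and no binding was measured.

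TLR5 recognizes bacterial flagellin. Tlr5 (53791) was counted 643 times in the control and 379 times under DSS, or at 8.98 and 6.93 CPM (log2 ratio -0.37, bounds -0.56 and -0.19). The direction of Tlr5 was thus opposite to that of Tlr4, and the ratios of the pair differed by 2.23 (interval 1.74 to 2.75). Paneth cell markers were lower as well, as the log2 ratios of all 6 markers ran from -2.19 for the defensin gene Defa24 to -0.88 for Ang4. Lyz1, the Paneth cell lysozyme, was at -1.06, and the ratio of Tlr5 was 0.69 higher than that of Lyz1 (interval 0.50 to 0.88), a pair chosen after the values were seen. The part of a loss of Paneth cells in the ratio of Tlr5 was not tested.

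TLR3 sits in endosomes, binds double-stranded RNA and signals through the adaptor TRIF, encoded by Ticam1, which TLR4 also uses beside MYD88. Tlr3 (142980) was the most abundant of the measured Toll-like receptors, counted 1118 and 1364 times, or at 15.6 and 24.9 CPM in control and DSS (log2 ratio 0.68, bounds 0.56 and 0.79). Ticam1 had 3966 and 4268 counts (log2 ratio 0.49, bounds 0.43 and 0.56). The ratio of Tlr3 was 0.18 above that of Ticam1 (interval 0.05 to 0.31), a pair chosen after the values were seen. Of 10 listed partners and chaperones of Toll-like receptors, 7 were in the table, with a median of -0.23. Of these 7, 3 were past the upper line and 3 past the lower line, beside 19.3% and 20.2% of all genes. The upper 3 were Cd36 at 4.57, a fatty acid transporter and partner of TLR2, Nrros at 1.96 and Tril at 1.35. Tril, which encodes an accessory protein of TLR3 and TLR4, had only 17 and 33 counts (bounds 0.46 and 2.28). Unc93b1, whose product carries endosomal receptors and TLR5 out of the endoplasmic reticulum, was at 18.4 CPM in the control and 7.35 CPM under DSS (log2 ratio -1.32). Cnpy3, a co-chaperone of the receptors, was at -1.08, and Hsp90b1, which encodes the chaperone gp96, was at -1.07. The ratio of Tlr3 was 2.0 higher than that of Unc93b1 (interval 1.80 to 2.20) and that of Tlr5 was 0.95 higher (interval 0.70 to 1.20), both pairs chosen after the values were seen. Summed over the 4 measured Toll-like receptors of the set, the level was 25.5 CPM in the control and 35.1 CPM under DSS (log2 ratio 0.46, bounds 0.36 and 0.55).

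**Figure D2:**
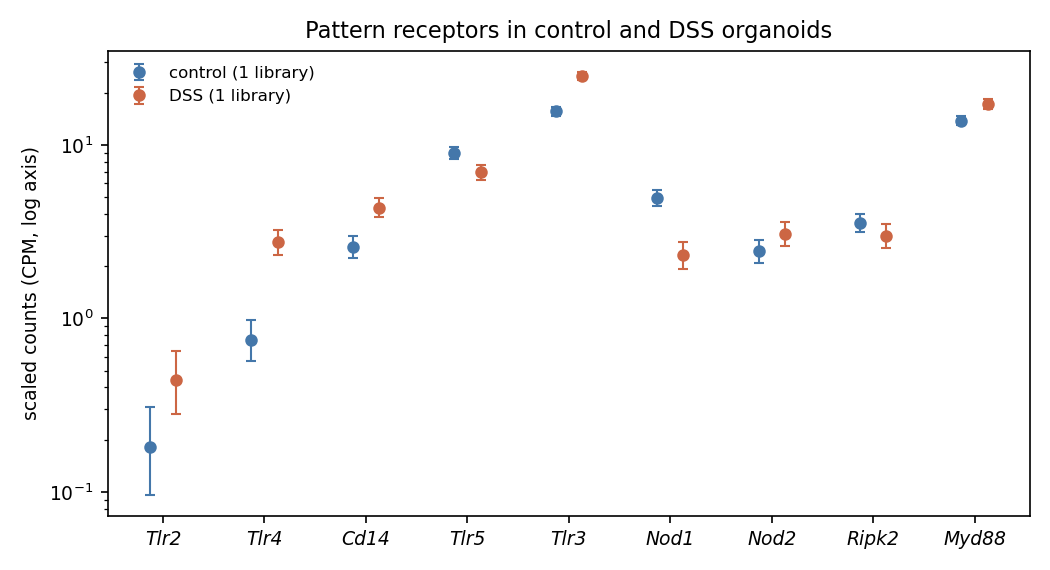
Scaled counts (CPM, log axis) of the 9 genes in the control library and the DSS library. Each point is 1 library and bars are exact 95% Poisson intervals of the count. Tlr2 and Tlr4 lie lowest in the control library, and the points of Tlr4 and then Tlr2 are furthest apart between the libraries on the log axis.

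NOD1 senses peptidoglycan fragments with diaminopimelic acid, common in Gram-negative bacteria, and NOD2 senses muramyl dipeptide, found in most bacteria. Nod1 (107607) was counted 355 times in the control and 127 times under DSS, or at 4.96 and 2.32 CPM. It was 2.14-fold lower under DSS (log2 ratio -1.09, bounds -1.40 and -0.80). Nod2 (257632) had 174 and 168 counts, or 2.43 and 3.07 CPM. Its log2 ratio was 0.34, and its lower bound of 0.02 was next to 0 (upper bound 0.65). The receptors lay apart from each other, since the log2 ratio of Nod2 was 1.43 above that of Nod1 (interval 0.99 to 1.87). Ripk2 (192656), which both receptors use, was counted 254 and 164 times (log2 ratio -0.24), with bounds of -0.53 and 0.05 on either side of 0. The ratio of Ripk2 lay between those of its receptors, as it was 0.85 above that of Nod1 (interval 0.43 to 1.27) and that of Nod2 was 0.58 above it (interval 0.15 to 1.01). The ratio of Nod2 was 1.40 higher than that of Lyz1 (interval 1.08 to 1.72), and that of Nod1 was 2.69 higher than that of the stem cell gene Lgr5 (interval 2.37 to 3.0), both pairs chosen after the values were seen. The 6 stem cell markers ran from -9.59 for Olfm4 to -1.25 for Smoc2, beside -1.09 for Nod1. The part of fewer stem or Paneth cells in the ratios of Nod1 and Nod2 was not tested.

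Around the NOD receptors, 15 of 18 listed partners and peptide carriers were in the table, of which 3 were past the upper line, 1 was past the lower line and 11 lay between, beside 19.3% and 20.2% of all genes past these lines. The median log2 ratio of these 15 genes was 0.39. Slc15a1, the brush border carrier PEPT1 that takes up dietary dipeptides and can carry muramyl dipeptide, had the largest ratio, with 396 counts in the control and 7660 under DSS (log2 ratio 4.66, bounds 4.52 and 4.81). The 6 enterocyte markers lay between log2 ratios of 1.25 and 5.27 in the same libraries, and the part of more enterocytes in the ratio of Slc15a1 was not tested. Slc15a4, a carrier of endolysosomes that can release muramyl dipeptide into the cytosol, was at -0.71. Arhgef2, linked to NOD signaling, was at 1.87, and Erbin, a NOD2 binding protein, at 1.04. Trim27, a ubiquitin ligase that acts on NOD2, was at -1.27. Xiap, the ubiquitin ligase that acts on RIPK2, was at 0.54.

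MYD88 is the adaptor of all Toll-like receptors of the set other than TLR3, and of the interleukin-1 receptor family. Myd88 (17874) was counted 988 and 939 times, or at 13.8 CPM in the control and 17.2 CPM under DSS (log2 ratio 0.32, bounds 0.18 and 0.45). With total counts, the ratio was 0.06 and its interval included 0. The ratio of Tlr4 was 1.55 above that of Myd88 (interval 1.07 to 2.04), and that of Myd88 was 1.41 above that of Nod1 (interval 1.08 to 1.74). The kinases that join MYD88 in its complex lay on both sides of 0. Irak4 was at 0.80 and Irak2 at 0.65, whereas Irak1 was at 81.0 CPM in the control and 41.2 CPM under DSS (log2 ratio -0.98). The ratio of Myd88 was 1.29 above that of Irak1 (interval 1.14 to 1.44), and that of Irak4 was 0.48 above that of Myd88 (interval 0.33 to 0.64), both pairs chosen after the values were seen. Of the 18 of 19 listed adaptors and kinases in the table, 15 lay between the lines, beside 60.5% of all genes. Their median was 0.19. Peli1, a ubiquitin ligase of this complex, at 1.40, and Chuk, which encodes the kinase IKKα, at 1.21, were past the upper line, and Peli2 at -1.27 was past the lower line with 63 and 20 counts.

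Among genes that restrain this signaling, 16 of 17 were in the table, with 4 past the upper line, 1 past the lower line and a median of 0.58, against the same 19.3% and 20.2% of all genes. Dusp1, a phosphatase of p38 and JNK, was at 3.27, and Atf3, a transcriptional repressor of cytokine genes, was at 2.68. Tnip1 at 1.38 and Tnfaip3 at 1.10 encode the partners ABIN1 and A20, which limit ubiquitin signals to NF-κB. Pik3ap1, which encodes the adaptor BCAP, had 1280 counts in the control and 148 under DSS (log2 ratio -2.72). Sigirr, a decoy-like receptor that dampens Toll-like and interleukin-1 receptors, was at 0.86 and Tollip, an inhibitor of IRAK1, was at 0.20. Over all pathway lists without the set itself, 88 genes reached 10 counts in one or both libraries. Of these, 28.4% were past the upper line and 12.5% past the lower line. The shares were 22.2% and 11.1% of the 9 genes and 19.3% and 20.2% of all genes. The lists were chosen with earlier results of these data known, so the shares are descriptive only.

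**Figure D3:**
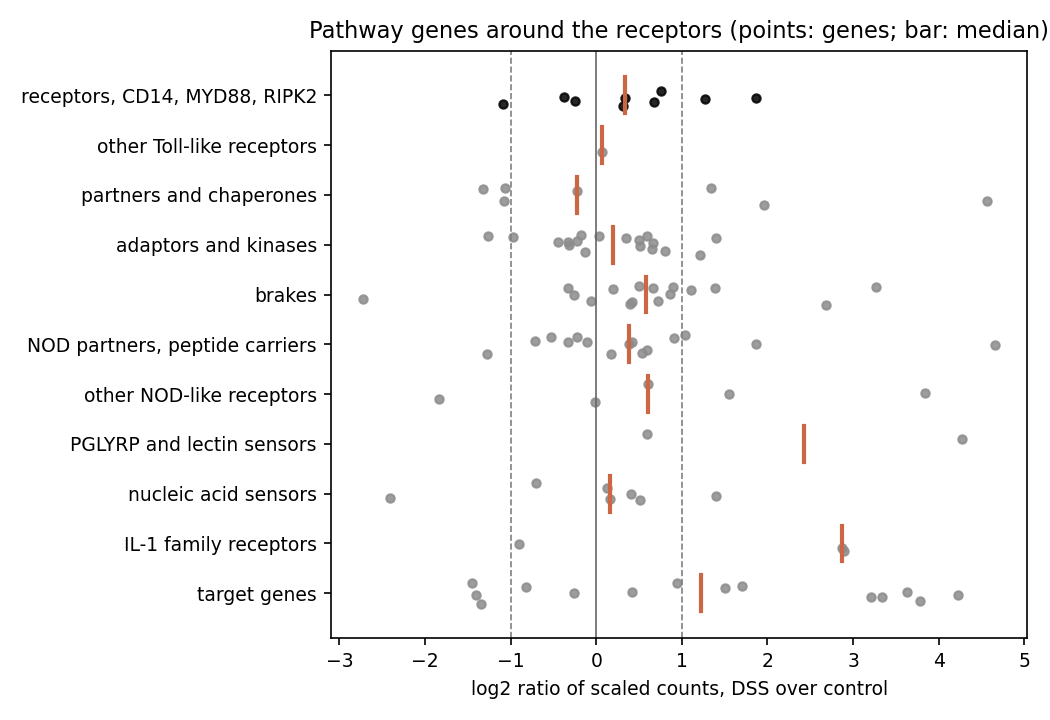
Log2 ratio of scaled counts, DSS over control, for the 9 genes of the set (black) and for listed pathway genes with 10 counts or more in one or both libraries (grey). Each point is 1 gene, orange bars are medians, vertical jitter has no meaning and dashed lines mark 1 and -1. The 9 genes lie between -1.09 and 1.86, a narrower range than that of the target genes, from -1.45 to 4.22.

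Levels of different genes were compared as CPM per kilobase of the longest coding transcript in GENCODE vM21. In the control library, Myd88 was highest at 7.04 CPM per kilobase, followed by Tlr3 at 3.54, Tlr5 at 2.35, Cd14 at 1.58, Ripk2 at 1.32, Nod1 at 1.15, Nod2 at 0.515, Tlr4 at 0.185 and Tlr2 at 0.0603. The neighbours Cd14 and Ripk2, and Ripk2 and Nod1, did not differ beyond counting error, as their interval of the ratio included 1. In the DSS library, Myd88 at 8.76 and Tlr3 at 5.66 kept the first places. Cd14 at 2.65 stood above Tlr5 at 1.82, in the reverse of their order in the control library. Ripk2 followed at 1.11, and then Tlr4 at 0.673, Nod2 at 0.651, Nod1 at 0.538 and Tlr2 at 0.146. Here Tlr4 and Nod2, and Nod2 and Nod1, did not differ beyond counting error. Of the summed level per kilobase of the 4 Toll-like receptors, Tlr3 took 57.7% in the control and 68.2% under DSS, Tlr5 took 38.3% and 21.9%, Tlr4 took 3.01% and 8.11%, and Tlr2 took 0.981% and 1.76%.

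**Figure D4:**
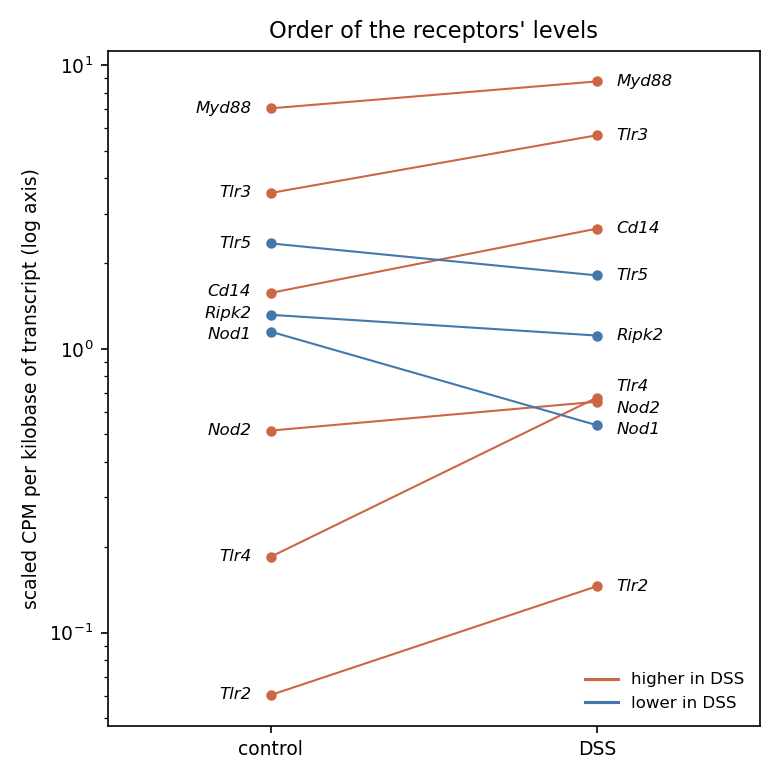
Scaled CPM per kilobase of transcript (log axis) of the 9 genes in the control and the DSS library, joined by lines that are orange where the DSS value is higher and blue where it is lower. Nod1 is at 1.15 and 0.538 and Tlr4 at 0.185 and 0.673, so that Tlr4, Nod1 and Nod2 lie close together in the DSS library.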

How the data were processed

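The mRNA-seq comparison used 1 control and 1 DSS-treated organoid culture. Per the labels, libraries were made with a stranded mRNA kit, and the authors deposited a table of whole-number read counts by NCBI gene identifier. The 2 files of single samples carry FPKM in their names, yet their values equal those counts for all 19294 genes. The submitters' processing notes name HISAT2 and StringTie, and the version, the genome build and the counting rule are not given in the sources used here. No gene of the table has 0 counts in either library, so a gene missing from it may have had reads in only the control or only the DSS library.

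The table held 65493032 and 59746968 counts. TMM factors of edgeR 4.0.16 under R 4.3.3 were 1.09 (control) and 0.915 (DSS). Ratios carry Clopper-Pearson 95% intervals, levels exact Poisson intervals, and differences between genes the exact interval of a conditional odds ratio, for 9 of 10 planned pairs and 9 added after the values were seen. These cover counting error only. A floor of 3 counts for a count of 0 was not needed. No test was made with 1 library per group. The computation was tested on simulated counts with counting noise only and 200 changed genes. This cannot test the scaling where many more genes differ, or the variation between cultures.

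The genes, the 10 pathway lists and the markers were chosen with earlier results of these data known. Named genes are the 10 genes of the set, in each pathway list the 4 with log2 ratios farthest from 0 that reached 50 counts in a library, the measured genes of lists of up to 7, and immune markers that reached 10 counts. Ly96, Tril, Hsp90b1, Slc15a4, Xiap, Irak2, Irak4, Ticam1, Tnfaip3, Sigirr, Tollip, Reg3b, Reg3g, Cxcl10, Icam1, Tnf, Nos2, Nfkbiz and the cell type markers were named after their values were seen. Tried in place of TMM and the other settings were total counts, size factors from DESeq2 1.42.0, upper quartiles, 2 counts added per gene, the deeper library thinned to the shallower, other count minimums, a line of 2 and coding length. Scripts ran under Python 3.11.15 with scipy 1.17.1, numpy 2.4.6, pandas 2.3.3 and matplotlib 3.10.9.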

Additional observations from a re-analysis of the deposited data

How the results depend on the processing

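Each condition was 1 library, so the intervals hold no variation between cultures. With a log2 line of 2 in place of 1, 0 of the 9 genes were past either line. Where the whole interval had to lie past the line, 1 gene (Tlr4) was past the upper and 0 past the lower line with TMM, and with total counts the interval of Nod1 was past the lower line. Across 5 other settings (total counts, DESeq2 size factors, upper quartiles, 2 added counts and thinning), the sign of the ratio stayed for all 9 genes, and 42 of 45 values stayed inside the interval given above. The other 3 were Tlr3 at 0.42, Tlr5 at -0.63 and Myd88 at 0.06, each with total counts. With the deeper library thinned, the interval of Nod2 also included 0. The counts of the 9 genes past the lines were 2 and 1 under all 5. With total counts, the median of the 9 genes was 0.08 in place of 0.34, and 26.2% of all genes were past the lower line in place of 20.2%. The order of levels per kilobase was the same with coding length. No paired analysis was possible because each condition has 1 library and the labels give no replicate numbers. Depth limits Tlr2 most, with 13 and 24 counts.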

Other observations

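Of 7 other NOD-like receptors listed, 5 were in the table, with log2 ratios from -1.83 to 3.84. Nlrp6, which acts in goblet cell mucus secretion and antiviral defence, was the most abundant of them, at 340 CPM without and 517 CPM with DSS (log2 ratio 0.60). Nlrc3, known as a brake on several innate pathways, had 238 and 2603 counts, for a log2 ratio of 3.84 (bounds 3.65 and 4.04). Nlrp10 was at 1.55, Nlrx1 at -0.01, and Nlrc5, a transactivator of MHC class I genes, had 14 and 3 counts. Of 10 cytosolic nucleic acid sensor genes, 7 were in the table. Ddx58, which encodes the RNA sensor RIG-I, was at 1.40, and Ifih1, which encodes the RNA sensor MDA5, was at 0.52, while Ddx41, a helicase linked to DNA sensing, was at -0.70. Cgas, the DNA sensor that makes cyclic GMP-AMP, had 1039 and 150 counts (log2 ratio -2.40, bounds -2.66 and -2.16), and its partner Sting1 was not in the table. Pglyrp1, a secreted peptidoglycan binding protein, was at 0.59. Mrc1, the mannose receptor best known from macrophages and some endothelia, had 96 and 1417 counts, a log2 ratio of 4.27, while Ptprc and Adgre1 were not in the table and Pecam1 had 12 and 55 counts. The part of such cells in the ratio of Mrc1 was not tested.

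Of 6 listed receptors of the interleukin-1 family, which share MYD88, 3 were in the table. Il18r1 had 54 and 307 counts (log2 ratio 2.90) and Il1r1 had 10 and 56 counts (log2 ratio 2.87), while the shared subunit gene Il1rap had 937 and 382 counts (log2 ratio -0.91). Of 26 listed epithelial target genes of these receptors, 14 were in the table, 7 past the upper line, 3 past the lower line, with a median of 1.22, beside 19.3% and 20.2% of all genes past these lines. Il33 at 4.22, Ccl20 at 3.78, Duox2 at 3.63 and Il18 at 3.33 were highest, and Nos2 was at 1.71 and Nfkbiz at 1.51. Reg3b, a bactericidal lectin, was at -1.41, Cxcl10 at -1.45 and Icam1 at -1.35, the last pair with fewer than 50 counts in both libraries. Reg3g, on the same list, went the other way from Reg3b, with 7303 and 7428 counts (log2 ratio 0.41, bounds 0.37 and 0.46). Il6, Il1b, Cxcl2, Ccl2, Lcn2 and Saa1 were among the 12 that were not in the table, and Tnf had 79 and 116 counts. All genes in the table have counts in both cultures, so a missing gene may have had reads in only the control or only the DSS culture. The target list was chosen with earlier results of these data known and holds genes that other stimuli induce as well. Which receptor, if any, acted in the organoids was not measured.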
